A study of Mus musculus with 4 samples.

Results

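Basal body and transition zone genes build the foot of the cilium, and 40 of them were followed in mouse embryos carrying a GFP insertion in Noto. A gene was taken from the arrays by its symbol, or by its present symbol where the array listed an older name, as for 18 of the genes (Cep41, for example, was listed as Tsga14 and Tctn1 as Tect1). Of the 40 genes, 39 had a probe and all 39 were measured, out of 18604 measured genes in all. Mks1 was the exception: no probe was found for it, and it enters through its promoter sequence alone. None of the 39 differed between the genotypes by 1.5-fold on both arrays. Only 2.39% of all measured genes did, and 0.656% of those brighter than the median gene. Their ratios lay close to 0 on either side, and 1 gene, Sfi1, gave a 0.412-fold level in the homozygote by its second probe and no such difference by its brightest one.

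Noto encodes a homeobox factor made in the node and the notochord, and the study it belongs to is a search for effectors of FOXJ1, the factor that switches on motile cilia. The heterozygous group, Noto GFP/+, was the control and carried 1 copy of the same insertion; the homozygous group, Noto GFP/GFP, carried 2. Both were on an Sv129/CD-1 hybrid background and were taken at about E7.75, the early headfold stage. The distal piece of each embryo, which holds the node at its tip, was collected in pools of 120 to 150, and its stated size is not the same throughout the labels. Nothing in the labels gives a treatment or the sex of the embryos. RNA of both genotypes was hybridised together on each of 2 arrays, with the dyes exchanged on array 2, so the 4 samples are 2 technical measurements of 1 RNA pool per genotype. Without a second pool of either genotype no test was made, and each SD (n = 2 arrays) measures technical spread only. The node is a small part of the piece, and in such bulk samples fewer cells of a type and less RNA per cell cannot be told apart.

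The basal body is a modified mother centriole that docks at the cell membrane by its distal appendages and seeds the axoneme. Just above it lies the transition zone, where Y-shaped links between microtubules and membrane form a gate that lets selected proteins into the cilium. The MKS and tectonic proteins are built into that gate together with the nephronophthisis proteins, while capping proteins such as CCP110 and CEP97 hold back axoneme growth until the cell is ready. Primary cilia and motile cilia both need these parts, and cells of the node carry a single cilium whose motility drives leftward flow. Mutations of the genes underlie Meckel, Joubert, nephronophthisis and related syndromes.

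Many ciliary genes carry an X-box, the palindrome bound by RFX factors, and the promoter windows of RefSeq (assembly GRCm38.p6, 250 bases before to 50 after the start of a gene) were searched on both strands for the letters GTTNCC followed by any 3 bases and GNAAC. The letters occurred in 253 of 27025 genes with such a window (0.936%) and in 4 of the 36 basal body and transition zone genes that had one. All 4 belonged to the tectonic and MKS group, where 4 of 13 windows held them (30.8%), against 0 of 5 nephronophthisis and 0 of 10 centriolar windows. Other ciliary lists held them too, with 4 of 26 radial spoke and central pair windows (15.4%), 1 of 13 BBSome windows (7.69%), 1 of 27 intraflagellar transport windows (3.70%) and 1 of 58 windows of further transition zone and basal body genes (1.72%), beside 11.1% of the 36. The matches are shown for the 4 genes that hold them, which were picked by the match itself. Capitals mark the matched letters, each sequence reads along the gene, and the position follows the name.
Tctn1, chr5:122264411-122264432, minus strand: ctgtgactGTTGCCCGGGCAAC
B9d2, chr7:25680788-25680817, plus strand: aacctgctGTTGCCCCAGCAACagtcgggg
Ahi1, chr10:20952560-20952589, plus strand: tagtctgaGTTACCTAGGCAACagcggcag
Mks1, chr11:87853183-87853212, plus strand: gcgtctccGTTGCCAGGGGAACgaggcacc
In Mks1 the letters ended 10 bases before the annotated start, and in B9d2, Ahi1 and Tctn1 they ended 30, 35 and 50 bases after it, in Tctn1 at the edge of the window. A match is a string of letters and not a measured binding site. The 3 measured carriers (Tctn1, B9d2, Ahi1) had a median log2 ratio of homozygote over heterozygote of -0.061, beside -0.036 for the 32 measured members whose window lacked the letters. Over all measured genes the same medians were -0.022 (138 genes with the letters) and -0.0098 (12054 genes without).

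All 39 brightest probes were well above background in all 4 samples, and 26 of the 39 were brighter than the median measured gene. A gene counted as higher or lower when both arrays gave at least 1.5-fold (a log2 ratio of 0.58) in that direction. By that rule 0 of the 39 were higher and 0 lower. Over all 18604 measured genes 2.39% were called (445 genes), 0.0591% higher (11) and 2.33% lower (434), and among the genes brighter than the median 0.656% were called. The same shares stand beside each count of called genes in the groups below. At such shares a count of 0 in a small set is not read as a difference from other genes. Mean log2 ratios ran from -0.36 (Cby1) to 0.27 (Cc2d2a), with a median of -0.052 ± 0.066; over all measured genes the median was -0.018. The ratio lay below 0 on both arrays for 11 of the 39 (28.2%; background 34%) and above 0 on both for 8 (20.5%; background 25.7%), and 20 had opposite signs on the 2 arrays. Both shares are below those of all genes. Of the brighter genes 25.1% lay below 0 on both arrays and 24.5% above 0 on both. Opposite signs made up 51.3% of the 39, against 40.4% of all genes and 50.3% of the brighter ones. The median gap between the arrays, as an SD, was 0.147 for these genes, 0.122 for all and 0.129 for the brighter ones. Across the 39 genes the 2 arrays correlated with r = 0.183, against 0.131 across the 9302 brighter genes and 0.500 across all; the 2 arrays share the same RNA pools and differ in slide and dye. For 27 of the 39, array 1, where the homozygote carried Cy5, gave the higher ratio (69.2%), against 55.1% of all measured genes and 46.9% of the brighter ones.

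**Figure D1:**
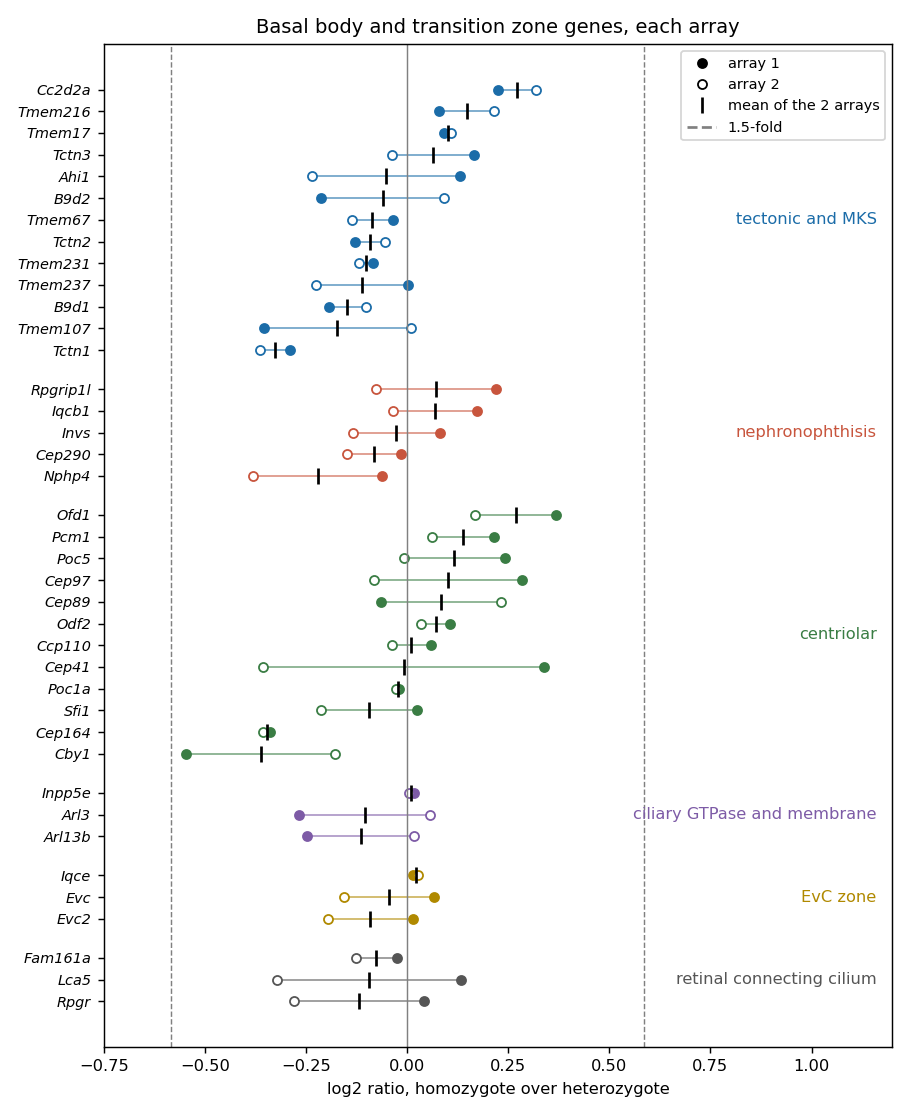
Log2 ratio of homozygote over heterozygote on the x axis for each of the 39 measured basal body and transition zone genes, sorted within 6 groups; filled points are array 1, open points array 2, black ticks their mean, dashed lines 1.5-fold. No gene has both points beyond the same dashed line, and the points of 20 genes lie on opposite sides of 0.

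The tectonic and MKS group holds membrane and peripheral proteins of the transition zone gate. Of its 13 measured genes 0 passed the size rule, 5 lay below 0 on both arrays, 3 above 0 on both and 5 had opposite signs, with a median log2 ratio of -0.087 ± 0.014. The medians on arrays 1 and 2 were -0.036 and -0.056, both nearer to 0, and the SD is the one between those. Tctn1, a secreted or membrane-linked tectonic (probe on mm8 chr5:122502144-122502203), had normalized log2 intensities of 10.03 in the heterozygote and 9.74 in the homozygote on array 1, and 9.72 and 9.35 on array 2. The homozygote was the lower sample on each array. Levels also shifted between the arrays, so that the heterozygote on array 2 was below the homozygote on array 1. The log2 ratios were -0.29 and -0.36, a mean of -0.33 ± 0.052, or 0.797-fold. A mean that far from 0 was reached by 12.2% of all measured genes; Tctn1 itself was dimmer than the median gene.

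Cc2d2a, a C2-domain protein that anchors the gate near the distal appendages (mm8 chr5:44024285-44024344), lay on the other side. Its levels were 9.72 and 9.95 (heterozygote, homozygote) on array 1 and 9.77 and 10.09 on array 2, so the homozygote was the higher sample on each array. The log2 ratios were 0.23 and 0.32, a mean of 0.27 ± 0.067 or 1.21-fold, a distance from 0 that 17.5% of all genes reached. Cc2d2a and Tctn1, whose products act in the same complex, were therefore at opposite ends of the group, each below the 1.5-fold limit on both arrays.

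The other tectonics lay nearer to 0. Tctn2 had log2 ratios of -0.13 and -0.056, and Tctn3 of 0.16 and -0.039. Of the B9-domain proteins, which sit on the cytoplasmic side of the gate, B9d1 had -0.19 and -0.10 (mean -0.15 ± 0.064) and B9d2 -0.21 and 0.090. The 2 B9 genes thus had like ratios on array 1 and opposite signs on array 2.

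The transmembrane proteins of the gate also lay on either side of 0. Tmem67, also called meckelin, a receptor-like protein, had log2 ratios of -0.036 and -0.14, and Tmem231 of -0.085 and -0.12. Tmem216 had 0.079 and 0.22, and Tmem17 had 0.091 and 0.11, which makes these and Cc2d2a the 3 genes of the group above 0 on both arrays. A second, dimmer probe of Tmem17 had -0.088 and -0.29. Tmem107 had -0.36 and 0.010, Tmem237 had 0.0023 and -0.23, and Ahi1, which encodes the Joubert syndrome protein jouberin, had 0.13 and -0.23. For these last 3 genes, and for Tmem67, the difference between the arrays was larger than the distance of the mean from 0.

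Nephronophthisis genes encode the proteins that link the gate to the basal body and to the inversin compartment of the proximal cilium. Of 5 measured genes 0 passed the rule, 2 lay below 0 on both arrays, 0 above 0 on both and 3 had opposite signs, with a median of -0.027 ± 0.152. Nphp4, a scaffold of the gate (mm8 chr4:151406695-151406754), had levels of 12.52 and 12.45 (heterozygote, homozygote) on array 1 and 13.11 and 12.73 on array 2. Both samples of array 2 were above both of array 1, a shift between the arrays, and within each array the homozygote was the lower sample. The log2 ratios were -0.062 and -0.38, a mean of -0.22 ± 0.23.

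The SD of Nphp4 was as large as its mean, and the other 4 genes of the group lay nearer to 0. Cep290, which bridges microtubules and membrane, had log2 ratios of -0.016 and -0.15. Rpgrip1l, which anchors the nephronophthisis proteins in the gate, had 0.22 and -0.078, Iqcb1 (NPHP5), a partner of CEP290, had 0.17 and -0.035, and Invs, which encodes inversin and is known for laterality defects when mutated in mice, had 0.080 and -0.13. For all 5 genes array 1 gave the higher ratio.

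**Figure D2:**
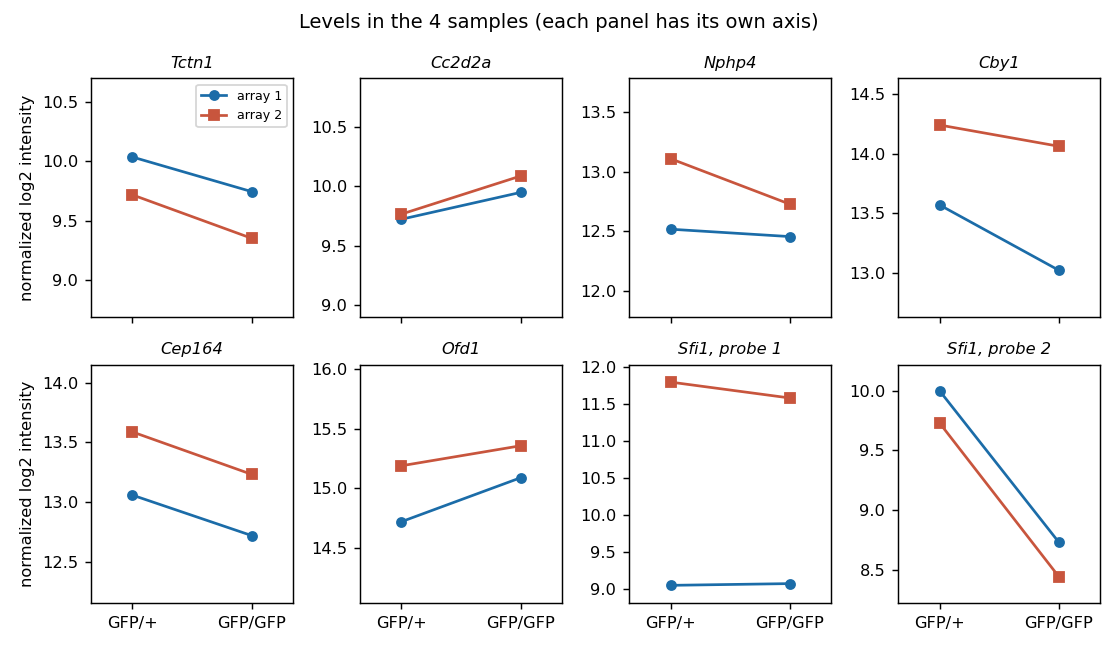
Normalized log2 intensity (y axis, a separate scale in each panel) in the heterozygous (GFP/+) and homozygous (GFP/GFP) sample of array 1 (circles) and array 2 (squares); a line joins the 2 samples of an array. Lines of Tctn1, Cby1 and Cep164 slope down on each array, those of Cc2d2a and Ofd1 slope up, and probe 2 of Sfi1 has the largest differences of the 8 panels, from 9.9997 to 8.73 and from 9.73 to 8.44.

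Centriolar genes, with 12 measured, had 0 past the rule, 3 below 0 on both arrays, 3 above 0 on both and 6 with opposite signs; the median log2 ratio was 0.040 ± 0.081. This group held both the lowest gene of the 39, Cby1, and the second highest, Ofd1. Cby1, a small protein of the distal appendage region that helps the basal body dock (mm8 chr15:79494563-79494622), had levels of 13.57 and 13.02 (heterozygote, homozygote) on array 1 and 14.24 and 14.06 on array 2. The homozygote was lower on each array, by 0.55 on array 1, just short of the limit of 0.58, and by 0.18 on array 2. The mean log2 ratio was -0.36 ± 0.26, or 0.778-fold, a distance reached by 9.998% of all genes and 3.79% of the brighter ones.

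Cep164, a distal appendage protein that recruits the kinase TTBK2 (mm8 chr9:45518107-45518166), had levels of 13.06 (heterozygote) and 12.72 (homozygote) on array 1, and on array 2 of 13.59 and 13.23. Its ratios of -0.34 and -0.36 agreed closely, with a mean of -0.35 ± 0.012 or 0.786-fold, a distance reached by 10.9% of all genes and 4.29% of the brighter ones. A second, dimmer probe of Cep164 gave -0.31 and -0.59, a mean of -0.45 ± 0.19. It lies in another part of the transcript, since its 60 bases span mm8 chr9:45530809-45532983 and so cross an intron; it is shown because it is a second reading of the same gene.
Cep164, second probe: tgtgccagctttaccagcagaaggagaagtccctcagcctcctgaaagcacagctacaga
Both probes of Cep164 were below 0 on each array, and neither passed the rule.

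Ofd1, a centriolar satellite and distal centriole protein whose gene lies on the X chromosome (mm8 chrX:161735077-161735136), had levels of 14.72 and 15.09 (heterozygote, homozygote) on array 1 and 15.19 and 15.36 on array 2. The homozygote was higher on each array. Levels also shifted between the arrays, so that the heterozygote of array 2 was above the homozygote of array 1. The log2 ratios were 0.37 and 0.17, a mean of 0.27 ± 0.14 or 1.204-fold. Pcm1, the scaffold of the satellites, had 0.21 and 0.062, and Odf2, a mother centriole appendage protein, had 0.10 and 0.035. These 3 were the centriolar genes above 0 on both arrays by their brightest probes. Every other measured probe of Odf2 lay below 0 on each array, with means of -0.13, -0.10 and -0.47.

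The cap proteins Ccp110 (0.058 and -0.039) and Cep97 (0.28 and -0.083) had ratios of opposite sign on the 2 arrays. Poc1a, a centriole core protein, was the steadiest of the group by its brightest probe, at -0.021 and -0.027. Its second probe was not steady, at -0.15 and 0.48. Cep41, which takes part in tubulin glutamylation, was the least steady of all 39 by brightest probes. Its log2 ratios were 0.34 and -0.36, with a mean of -0.0091 ± 0.49. Its second-brightest probe went the other way, at -0.24 and 0.083, and the mean of its probes was 0.032 ± 0.051. Poc5, a distal centriole protein, had 0.24 and -0.0091, and Cep89, a distal appendage protein, had -0.066 and 0.23.

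Sfi1, a centrin-binding protein of centrioles, gave different answers by its 2 measured probes. Both probes are shown, since the reading of the gene turns on which one is used; both lie on the minus strand of mm8 chromosome 11, the brightest at chr11:3032129-3032272, where 60 bases span 144 and so cross an intron, and the second at chr11:3032647-3032706. The array design ties the brightest probe to the RefSeq mRNA of Sfi1 and the second to a tongue cDNA clone, under the same gene name; of the second the first 30 of 60 bases are given.
Sfi1, brightest probe: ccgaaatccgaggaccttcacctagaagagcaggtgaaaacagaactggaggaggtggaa
Sfi1, second probe: gctggaagtcctgctttccatttggaggct
By the brightest probe the levels were 9.05 and 9.08 (heterozygote, homozygote) on array 1 and 11.80 and 11.58 on array 2, with log2 ratios of 0.023 and -0.21. By the second probe they were 9.9997 and 8.73 on array 1 and 9.73 and 8.44 on array 2, so that the heterozygote was above the homozygote on each array. The log2 ratios of this probe were -1.27 and -1.29, a mean of -1.28 ± 0.013 or 0.412-fold, and 71 of 27783 measured probes (0.256%) had a mean as low. The probe was dimmer than the median measured gene, and called genes made up 0.656% of the brighter genes against 2.39% of all. No share was taken over probes of like brightness.

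The brightest Sfi1 probe also differed between the arrays in signal. Its brightness, the mean log2 intensity of both dyes, was 8.76 on array 1 and 12.09 on array 2, a gap of 3.33 where the median measured probe had a gap of 0.627. A gap at least that large occurred in 11 of 27783 probes (0.0396%), and the second Sfi1 probe had one of 0.355, with a brightness of 9.04 on array 1 and 9.40 on array 2. On array 1 the second probe was therefore the brighter of the pair, and the choice of the brightest probe, with it the count of 0 lower genes among the 39, rested on the signal of the other probe on array 2. The part of this gap in the ratio of the brightest probe was not tested.

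Of the 39 genes, 21 had more than 1 measured probe, and the median range between the probe means of 1 gene was 0.190, beside 0.174 over the 6488 genes with more than 1 measured probe. Sfi1 was the 1 gene of the 21 in which another probe passed the rule while the brightest did not, which happened in 1.56% of all such genes (100 of 6419). Next in range came Pcm1, whose dimmest probe of 3 had -0.79 and -0.16 (mean -0.48) against 0.14 by its brightest, and Ccp110, whose dimmer probe had 0.41 and 0.69 (mean 0.55 ± 0.20, or 1.47-fold) against 0.010 by its brightest. The dimmest of 4 Odf2 probes had -0.36 and -0.58 (mean -0.47), against 0.070 by the brightest. The remaining Odf2 probes, with means of -0.13 and -0.10, were below 0 on each array as well. These dimmer probes of Pcm1, Ccp110 and Odf2 missed the limit on at least 1 array. They were named after their values were seen.

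**Figure D3:**
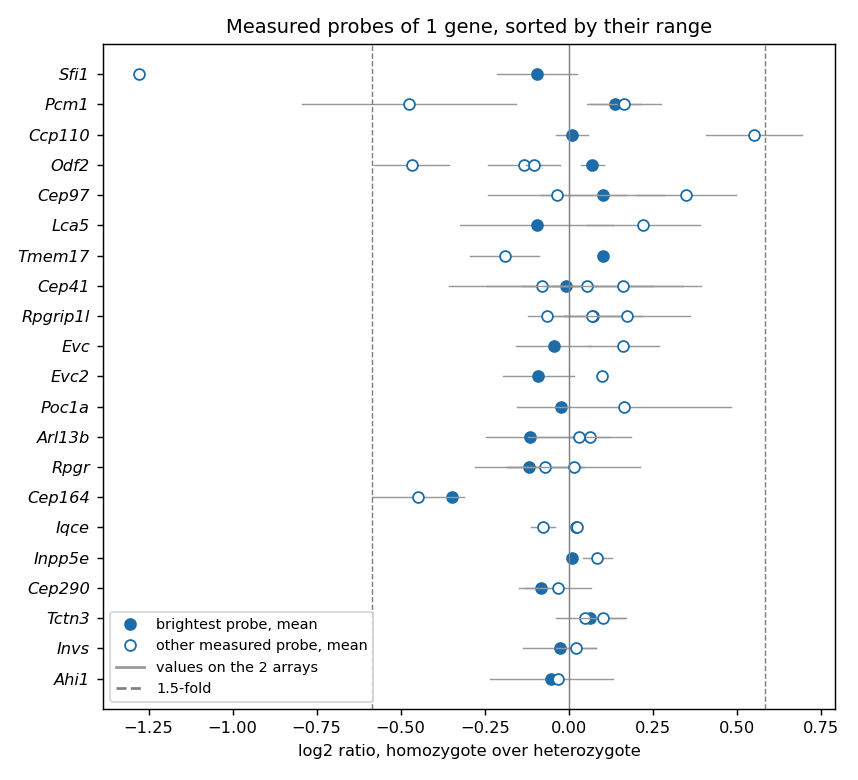
Mean log2 ratio (x axis, homozygote over heterozygote) of every measured probe of the 21 genes with more than 1, sorted by the range between probes; filled points are brightest probes, open points the others, grey lines join the values on the 2 arrays, dashed lines mark 1.5-fold. The second probe of Sfi1 at -1.28 stands apart from its brightest at -0.095, whereas both probes of Cep164 lie together.

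The small ciliary GTPases and the membrane enzyme that depends on them gave 0 of 3 past the rule and a median log2 ratio of -0.10 ± 0.19. Arl13b, a GTPase of the ciliary membrane, had -0.25 and 0.017, and Arl3, which it activates and which unloads lipid-anchored cargo, had -0.27 and 0.058. Inpp5e, a phosphoinositide phosphatase delivered by that route, had 0.016 and 0.0052. By their brightest probes Arl13b and Arl3 thus had like values on each array, and neither kept its sign. The second-brightest probe of Arl13b had 0.12 and 0.0075, and its dimmest -0.12 and 0.19.

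The EvC zone lies just above the transition zone and passes Hedgehog signals on from Smoothened. Its 3 genes had 0 past the rule and a median of -0.044 ± 0.12. Evc had log2 ratios of 0.067 and -0.16, and Evc2 had 0.015 and -0.20. Iqce, which tethers the EVC proteins, had 0.014 and 0.028. The 3 genes first known from the connecting cilium of photoreceptors also had 0 past the rule, with a median of -0.095 ± 0.23. Rpgr, a GTPase regulator on the X chromosome, had 0.041 and -0.28, Lca5, which encodes lebercilin, had 0.13 and -0.32, and Fam161a, a microtubule-binding protein, had -0.025 and -0.13.

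Between the 3 main groups, the medians ran from -0.087 (tectonic and MKS, 13 genes) through -0.027 (nephronophthisis, 5 genes) to 0.040 (centriolar, 12 genes). The order of the 3 did not hold on each array: on array 1 the medians were -0.036, 0.080 and 0.081, and on array 2 they were -0.056, -0.13 and -0.033. The tectonic median was below the centriolar one on each array, and the nephronophthisis median changed place. The ranges of the groups overlapped, from -0.33 to 0.27, from -0.22 to 0.071 and from -0.36 to 0.27. The groups also differed in brightness, with 5 of 13, 3 of 5 and 10 of 12 genes brighter than the median measured gene, and its part in the medians was not tested.

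A further list of 70 transition zone and basal body genes, such as those of the inversin compartment, the distal appendages and centriole duplication, had 69 measured members. Of these 0 passed the rule, the median log2 ratio was 0.017 ± 0.067, 17 lay below 0 on both arrays and 21 above. The lowest were Kif24, a centriolar kinesin that works with CCP110 (-0.45 and -0.49, mean -0.47 ± 0.026), and Anks6, of the inversin compartment (-0.73 and -0.12, mean -0.43 ± 0.43). The highest were Cep135, of the centriole cartwheel (0.56 and 0.33, mean 0.44 ± 0.16), and Ttbk2, the kinase that removes the cap (0.43 and 0.15, mean 0.29 ± 0.20). The ratio of Kif24 was further from 0 than that of any of the 39 genes above by their brightest probes, and was steady between the arrays.

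Genes of 3 other ciliary modules were set beside the 39 basal body and transition zone genes, which had a median of -0.052. Of 13 BBSome and BBSome-linked genes, which carry membrane proteins out of cilia, 0 passed the rule and the median was 0.0057, with Bbs5 lowest (-0.28 ± 0.26) and Bbs7 highest (0.18 ± 0.19). Of 31 measured intraflagellar transport genes 0 passed, with a median of 0.0085, from Tctex1d2 (-0.32 ± 0.17) to Dync2h1 (0.34 ± 0.22). Of 22 measured radial spoke and central pair genes, which serve ciliary beating, 1 was lower (Dydc2, -1.202 ± 0.043). This list was chosen with earlier results of these data known, so it is no independent contrast with the 39. On both arrays 17 lay below 0 (77.3%, against 34% of all genes) and 1 above. Of the brighter genes 25.1% lay below 0 on both arrays, and no share was taken over genes as dim as most of this list. The median of the gene means was -0.28 ± 0.022 (-0.23 on array 1 and -0.26 on array 2). That median was -0.160 over 29 genes with no filter on dim probes and -0.147 under median centring in place of loess. Only 2 of those 22 genes were brighter than the median measured gene, against 26 of the 39, and the share of called genes was smaller among bright genes, so the lists differ in brightness as well as in ratio, and the part of brightness was not tested. The difference between the lists was not tested either, for want of biological replicates.

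**Figure D4:**
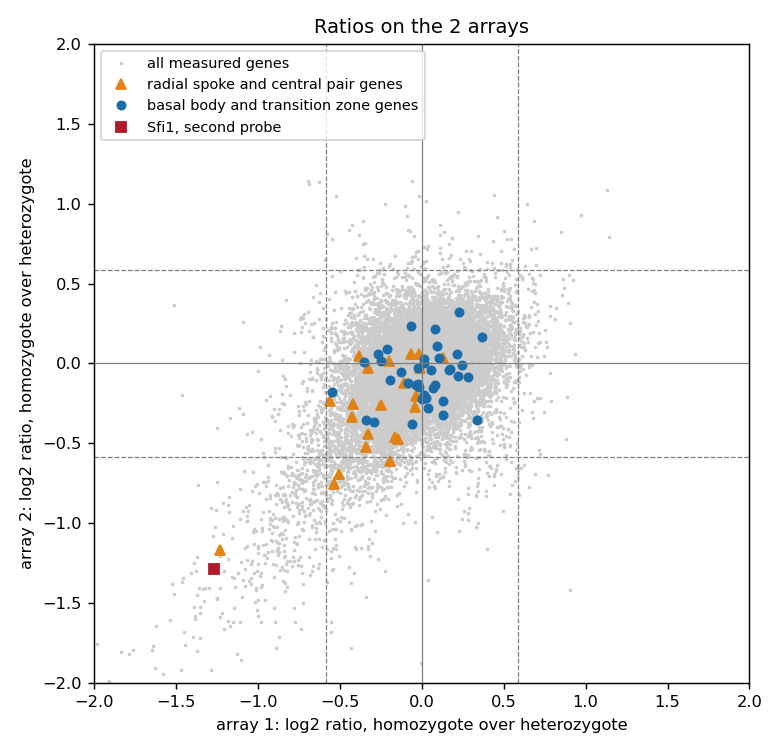
Log2 ratio of homozygote over heterozygote on array 1 (x axis) against array 2 (y axis) for all 18604 measured genes within the axis limits (grey), the 39 basal body and transition zone genes (blue circles), 22 radial spoke and central pair genes (orange triangles) and the second Sfi1 probe (red square); dashed lines mark 1.5-fold. The blue circles lie inside the dashed square, and the red square lies near Dydc2 at the lower left.

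**Figure D5:**
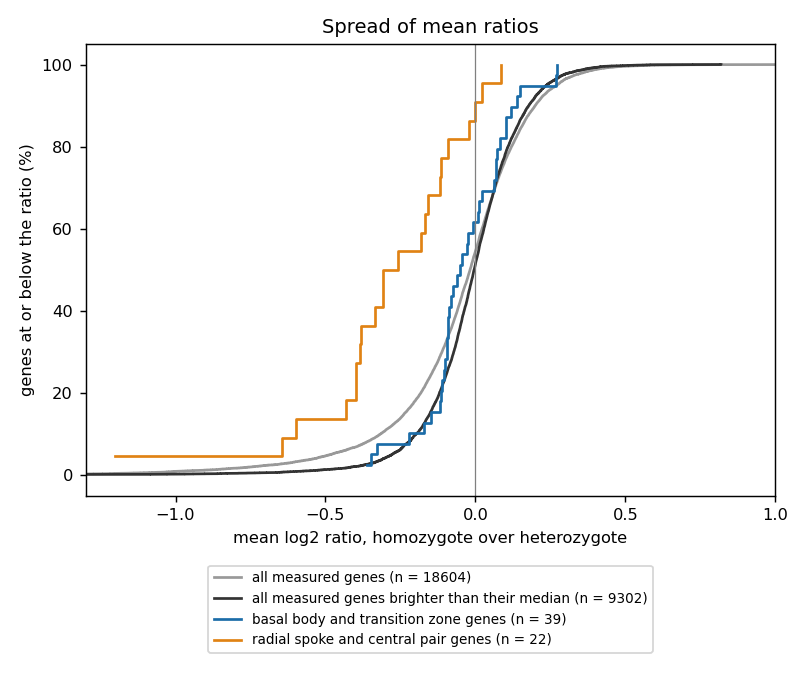
Share of genes (y axis, percent) with a mean log2 ratio at or below the value on the x axis, for all measured genes, the brighter ones, the 39 basal body and transition zone genes and the 22 radial spoke and central pair genes. The line of the 39 genes runs near that of the brighter genes, with medians of -0.052 and -0.0047, and that of the radial spoke genes lies to the left with a median of -0.28.

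Samples were compared with their labels by cell type markers. All but 1 of 12 node and notochord markers were measured, and 0 passed the rule. Of the 11, 6 lay below 0 on both arrays and 3 above, with a median of -0.093, from Gsc (-0.66 ± 0.20) to T (0.33 ± 0.016). Other low ones, named after their values were seen, were Foxd4 (-0.57 ± 0.087), Foxj1 (-0.52 ± 0.091), Shh (-0.44 ± 0.066) and Nog (-0.40 ± 0.075). The rest of the list lay nearer to 0: Dand5 (-0.093 ± 0.050), Nodal (-0.030 ± 0.053), Rfx3 (0.016 ± 0.0060), Chrd (0.078 ± 0.032) and Foxa2 (0.097 ± 0.29). Of 5 neural markers 0 passed the rule and 4 lay below 0 on both arrays, from Zic2 (-0.64 ± 0.32) to Pax6 (0.45 ± 0.14). Visceral endoderm markers (7 genes) had 0 past the rule, from Apoa1 (-0.13 ± 0.37) to Cubn (0.24 ± 0.18), and 1 gene was called in each of the blood (Hba-a1, -1.05 ± 0.18, of 6), trophoblast and decidua (Prl8a2, 1.11 ± 0.031, of 3) and mesoderm lists (Meox1, -0.62 ± 0.039, of 7). The part of tissue makeup in the values above was not tested. Median gene spots had foreground intensities of 305 to 722 over backgrounds of 45.5 to 67, and 0 gene spots were saturated. Ratios of spiked-in control RNAs had slopes of 0.809 and 0.705 against their expected log ratios, so the ratios of these controls were smaller than the true ones. The number of arrays limits the precision.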

How the data were processed

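Labelled RNA of 1 homozygous and 1 heterozygous pool was measured on 2 Agilent 2-colour arrays with exchanged dyes. Per the file headers, the authors read the scans with Agilent Feature Extraction 9.5.3.1, which gave foreground, background and processed intensity for each dye, a log10 ratio of red over green, and flags. The authors also deposited a value table of intensity, 1 column per sample, with a floor of 15; its further scaling is not given in the sources used here.

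From foreground and local background, limma 3.58.1 (R 4.3.3) applied normexp (offset 50) and loess within each array, checked on simulated data; levels by sample are on the loess and Aquantile scale. Control spots and outlier flags (179 and 165 spots) were left out. Array 2 was turned to homozygote over heterozygote. Of 41174 probes, 27783 were measured, meaning flagged well above background on both arrays in 1 genotype or both. A gene was read by its brightest measured probe. RefSeq names (GRCm38.p6, also the assembly of the promoter windows and their positions) were found for 33115 probes, and 8059 kept the array's own. Probe positions come from the array design (mm8), and which part of a gene a probe covers was not otherwise examined. Summaries used Python 3.11.15, pandas 2.3.3 and numpy 2.4.6, and plots matplotlib 3.10.9.

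A list is given by its counts and its median, with the SD between its median on array 1 and on array 2. The median of the gene means can lie outside the medians on the 2 arrays. Members and lists were chosen with earlier results of these data known. By rule every measured member is named; of the further list of 70 genes the 2 highest and 2 lowest, and of each comparison or marker list called genes up to 4, or otherwise the 1 farthest from 0 on either side. Beyond that rule, all measured node and notochord markers are named. Noto itself was not analysed here. The alternatives were no background correction, log ratios as written by the software, the deposited value table, median centring, the mean of probes, other filters on dim probes, each array alone, and the second-brightest probe.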

Additional observations from a re-analysis of the deposited data

How the results depend on the processing

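With 1 pool per genotype the errors cover technical spread only, and the brightest probe of each of the 39 members was well above background in all 4 samples. No paired analysis was possible because there is no unpaired fit to set it against: every value is already a ratio of the pair on an array. The count of 0 called members held without background correction, by the software's log ratios, by the value table, under median centring, under both other filters on dim probes and on each array alone. It became 1 (Sfi1) with the mean of measured probes, and 1 of 21 with the second-brightest probe, a setting chosen after the data were seen. That Sfi1 probe kept ratios past the limit on both arrays in the 4 other ways of making a ratio, with means from -1.46 to -1.22. The further list of 70 genes had 0 to 1 called when 1 array was left out. Median centring in place of loess moved the median of all genes from -0.018 to 0.121 (0.39 on array 1 and -0.16 on array 2), the members' median to 0.129, the tectonic and MKS median to 0.121 and the centriolar median to 0.27, and left 1 member below 0 on both arrays. With 1 array left out, 16 to 26 members lay below 0, and medians ranged from -0.078 to 0.016 (members), -0.056 to -0.036 (tectonic and MKS), -0.13 to 0.080 (nephronophthisis) and -0.033 to 0.081 (centriolar). The tectonic and MKS median was -0.060 by the software's log ratios and -0.068 by the value table, and the members' median was 0.022 by the second-brightest probe. The median of the radial spoke and central pair genes, -0.28, was -0.160 with no filter on dim probes, -0.147 under median centring and -0.197 with the mean of probes. The count of all called genes, 445 in the main setting, was 814 by the software's log ratios, 746 by the value table, 768 on array 1 alone and 1056 on array 2 alone. The causes were not tested.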
